A study of Mus musculus with 50 samples.

Results

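Cytokine genes made by effector T cells were followed through 50 RNA-seq libraries of mouse regulatory T cells (Treg cells) and their thymic precursors. The 10 genes are Il10, Ebi3, Il4, Il5, Il13, Il17a, Il2, Tnf, Lta and Csf2, taken by name from a deposited table of 55011 genes, and all 10 are in it. Treg cells are CD4 T cells marked by the transcription factor Foxp3, and they restrain other immune cells. The series title concerns the seeding of visceral adipose tissue (VAT, the fat inside the abdomen) by Treg cells made around birth.

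There are 16 groups. Treg cells sorted as CD4+ and Foxp3-GFP+ at 20 weeks of age came from VAT (4 libraries labelled DT and 4 labelled PBS) and from ear skin, liver, lung and spleen (3 and 3 for each tissue), all from male mice with the Foxp3tm3(HBEGF/GFP)Ayr allele, held on a B6.129(Cg) background. Per the series text, 12-week-old mice with the diphtheria toxin receptor in Foxp3-expressing cells, and littermates that lacked the receptor, both received the toxin on 3 days and rested for 8 to 9 weeks. The titles name the arms DT and PBS, while strain and genotype (WT) are labelled alike in both, so whether Treg cells had been depleted cannot be told from the labels. The arms are therefore called DT-labelled and PBS-labelled. The thymus gave 18 libraries from male mice of the strain B6.Cg-Foxp3tm1Kuch/J at day 5, 12 and 49 after birth (D5, D12 and D49). At each age 3 libraries hold P2 progenitors (CD4+ CD8- CD25- Foxp3+) and 3 hold P1 progenitors (CD4+ CD8- CD25+ Foxp3-). Each library was made from 500 to 1000 double-sorted cells and holds 2521078 to 6981037 counts. Nothing in the labels ties the libraries of a group to different mice, and the p-values then reflect the library-to-library spread alone, which may be technical.

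Activated T cells act on their surroundings largely through secreted cytokines. Il10 encodes interleukin-10, an anti-inflammatory cytokine that Treg cells of barrier tissues are known to make, and Ebi3 encodes a subunit shared by interleukin-27 and interleukin-35. Il4, Il5 and Il13 encode the type 2 cytokines of allergy and worm infection and lie in a single cluster, and Csf2 (GM-CSF) lies farther along the same chromosome. Il17a encodes the signature cytokine of Th17 cells. Il2 encodes the T cell growth factor that Treg cells consume and that Foxp3 is known to repress. Tnf and Lta encode tumour necrosis factor and lymphotoxin alpha, neighbouring members of the TNF superfamily that share receptors.

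The defining markers fitted the sort. Foxp3 ran from 135 to 380 CPM in the spleen libraries, from 277 to 516 CPM in the other tissues, from 251 to 836 CPM in P2 cells and from 4.03 to 18.6 CPM in P1 cells. CPM scale the counts to the library total, here with TMM factors except for sums over marker lists, which use the plain total. Il2ra, the CD25 gene, ran from 10.7 to 38.8 CPM in P2 and from 100 to 138 CPM in P1. Markers of other cells stood apart in several libraries. D49 P2 libraries summed to 23.9 to 133 CPM over 7 detected of 8 macrophage and monocyte markers (Cd14 at 0), against at most 8.84 CPM in D5 P2 and 6.27 CPM in D12 P2, and the 2 highest are replicates 2 and 3. D12 P1 libraries held counts in 5 of 5 neutrophil markers (3.47 to 5.64 CPM), which were at 0 in D5 P1. Macrophage markers reached 113 CPM in DT-labelled VAT (replicate 7) and 61.2 CPM in PBS-labelled lung (replicate 1), with group minima of 2.14 and 5.11 CPM. The 2 CD8 T cell markers reached 87.9 CPM in DT-labelled VAT, highest in replicates 5 and 6, from a minimum of 16.5 CPM, against 20.3 to 37.9 CPM in PBS-labelled VAT. The 6 dendritic cell markers summed to 38.0 to 85.8 CPM in DT-labelled and 57.0 to 77.6 CPM in PBS-labelled lung, against 12.7 to 18 and 16.1 to 31.8 CPM in DT- and PBS-labelled spleen, and were also above spleen in liver and ear skin. The part of these cells in the levels below was not tested.

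Tnf and Lta are shown as sequence because they are neighbours on chromosome 17 (mm10, minus strand, 35199381 to 35202007 and 35203165 to 35205351, with 1157 bases between them) and their levels moved in opposite directions in VAT. Il5 (chromosome 11, 53720794 to 53725106, plus strand) and Il4 (chromosome 11, 53602982 to 53618669, minus strand) are shown because each stood out in a single tissue. The lines give 250 bases before to 50 bases after the RefSeq start (GRCm38.p6), 5′ to 3′ on the gene's strand. The windows are chr17:35201958-35202257 for Tnf, chr17:35205302-35205601 for Lta, chr11:53720544-53720843 for Il5 and chr11:53618616-53618915 for Il4, where Il4 has a second start in the table that is not shown. Of the 10 members, 9 matched an entry, and Il10 is missing. Capitals mark GGAAA, the core bound by NFAT, the calcium-dependent factor of T cell activation, read on either strand (TTTCC).
Tnf: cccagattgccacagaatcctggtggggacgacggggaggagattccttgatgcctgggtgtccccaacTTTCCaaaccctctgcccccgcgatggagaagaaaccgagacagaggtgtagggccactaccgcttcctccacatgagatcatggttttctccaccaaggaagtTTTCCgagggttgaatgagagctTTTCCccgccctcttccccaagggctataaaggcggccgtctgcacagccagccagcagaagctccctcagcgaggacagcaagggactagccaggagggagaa
Lta: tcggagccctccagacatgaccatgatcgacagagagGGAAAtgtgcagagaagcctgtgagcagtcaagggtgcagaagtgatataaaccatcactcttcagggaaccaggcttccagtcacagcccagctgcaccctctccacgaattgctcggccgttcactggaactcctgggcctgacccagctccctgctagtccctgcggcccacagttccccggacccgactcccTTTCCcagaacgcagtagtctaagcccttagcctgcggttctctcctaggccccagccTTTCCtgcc
Il5: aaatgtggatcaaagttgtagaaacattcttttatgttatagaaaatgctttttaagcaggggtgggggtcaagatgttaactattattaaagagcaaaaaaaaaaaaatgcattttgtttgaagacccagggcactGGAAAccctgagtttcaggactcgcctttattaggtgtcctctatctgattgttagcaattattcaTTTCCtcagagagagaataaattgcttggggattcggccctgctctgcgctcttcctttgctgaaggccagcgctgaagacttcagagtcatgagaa
Il4: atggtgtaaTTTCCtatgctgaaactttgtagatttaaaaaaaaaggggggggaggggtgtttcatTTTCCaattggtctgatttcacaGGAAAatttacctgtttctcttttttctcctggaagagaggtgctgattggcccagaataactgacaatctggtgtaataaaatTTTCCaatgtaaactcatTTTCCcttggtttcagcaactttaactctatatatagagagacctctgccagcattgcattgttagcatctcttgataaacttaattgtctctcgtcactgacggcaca

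The GGAAA core was found 3 times in the Tnf window, 3 in that of Lta, 2 in that of Il5 and 5 in that of Il4. It stands in 61.3% of the 32851 promoter windows of the table, so its presence alone sets none of these genes apart. TATAAA, the TATA box, was found once each for Tnf and Lta and in 13.6% of all windows. GATAA, which GATA factors bind, was found once in the Il4 window and in 25.4% of all, and TGANTCA, the AP-1 site, in none of these windows and in 7.81% of all. Both strands were searched, no overlap between these motifs was set aside, and a match is a string of letters, not a bound site.

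Across the peripheral tissues the members followed separate courses. Il10 was higher than in spleen in each of the 4 other tissues, Lta was lower in lung, liver and VAT, Tnf was higher in ear skin and VAT and lower in lung, Ebi3 was raised in part of them, and Il5 was found almost exclusively in VAT. The tests are edgeR quasi-likelihood F tests across all genes with the Benjamini-Hochberg adjustment at 0.05, and a log2 fold change of 1 is a doubling. The 4 comparisons of an arm share its 3 spleen libraries. Of the 7 members that passed the filter on low counts (Il10, Ebi3, Il4, Il5, Il17a, Tnf and Lta), edgeR called 3 in DT-labelled lung, 3 in liver, 4 in ear skin and 5 in VAT. Of all genes tested, it called 14.6%, 13.3%, 22.1% and 8.85% there. In the PBS-labelled arm it called 3, 3, 4 and 5 of the 7 in the same order, beside 15.9%, 17%, 23.7% and 14.9% of all genes. Il4, Il5 and Il17a entered these tests only through the groups in which they were high, so the counts describe the members and no more.

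Il10 (chromosome 1, 131019845 to 131024974, plus strand) was the member with the widest range. It had 523, 484 and 835 CPM in DT-labelled ear skin and 83.8, 202, 173 and 78.0 CPM in DT-labelled VAT. DT-labelled liver held 273, 123 and 228 CPM and DT-labelled lung 33.5, 86.7 and 26.0 CPM, against 6.34, 3.59 and 13.3 CPM in DT-labelled spleen. Each library of these tissues was above every spleen library. The log2 fold changes over DT-labelled spleen were 6.46 ± 0.63 (SE) in ear skin, 4.19 ± 0.57 in VAT, 4.81 ± 0.60 in liver and 2.73 ± 0.58 in lung (edgeR adjusted p = 2e-09, 2.78e-06, 3.05e-07 and 0.000906).

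The PBS-labelled arm, which shares no library with the DT-labelled arm, showed the same separation from spleen. Il10 had 222, 275 and 267 CPM in PBS-labelled ear skin and 411, 268, 312 and 71.7 CPM in PBS-labelled VAT. PBS-labelled liver held 37.9, 124 and 87.8 CPM and PBS-labelled lung 28.1, 58.5 and 19.7 CPM, against 5.98, 3.52 and 3.31 CPM in PBS-labelled spleen. The groups again did not overlap with spleen, and VAT replicate 4 stood well below the other 3 of its group. The log2 fold changes were 6.0 ± 0.63, 5.96 ± 0.62, 4.30 ± 0.61 and 3.06 ± 0.61 (SE; edgeR adjusted p = 7.24e-09, 9.68e-09, 3.33e-06 and 0.000456 for ear skin, VAT, liver and lung). The lung call was lost with limma voom and quality weights (adjusted p = 0.143). In such bulk samples fewer cells with a message and less message per cell cannot be told apart.

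In the order of group means, Il10 ran from DT-labelled ear skin (614 CPM) through PBS-labelled VAT (265.7), PBS-labelled ear skin (254.6), DT-labelled liver (208) and DT-labelled VAT (134.3) to PBS-labelled liver (83.4). The lungs (48.7 and 35.4 in the DT- and PBS-labelled arm) and the spleens (7.74 and 4.27) followed. DT-labelled ear skin did not overlap with the next group, the 7 groups from PBS-labelled VAT to PBS-labelled lung each overlapped with the next, and lung and spleen did not overlap. In the thymus Il10 was near the detection limit. It had 0 counts in all libraries of D5 P2, D5 P1 and D49 P1, and D49 P2 held at most 1.21 CPM.

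**Figure D1:**
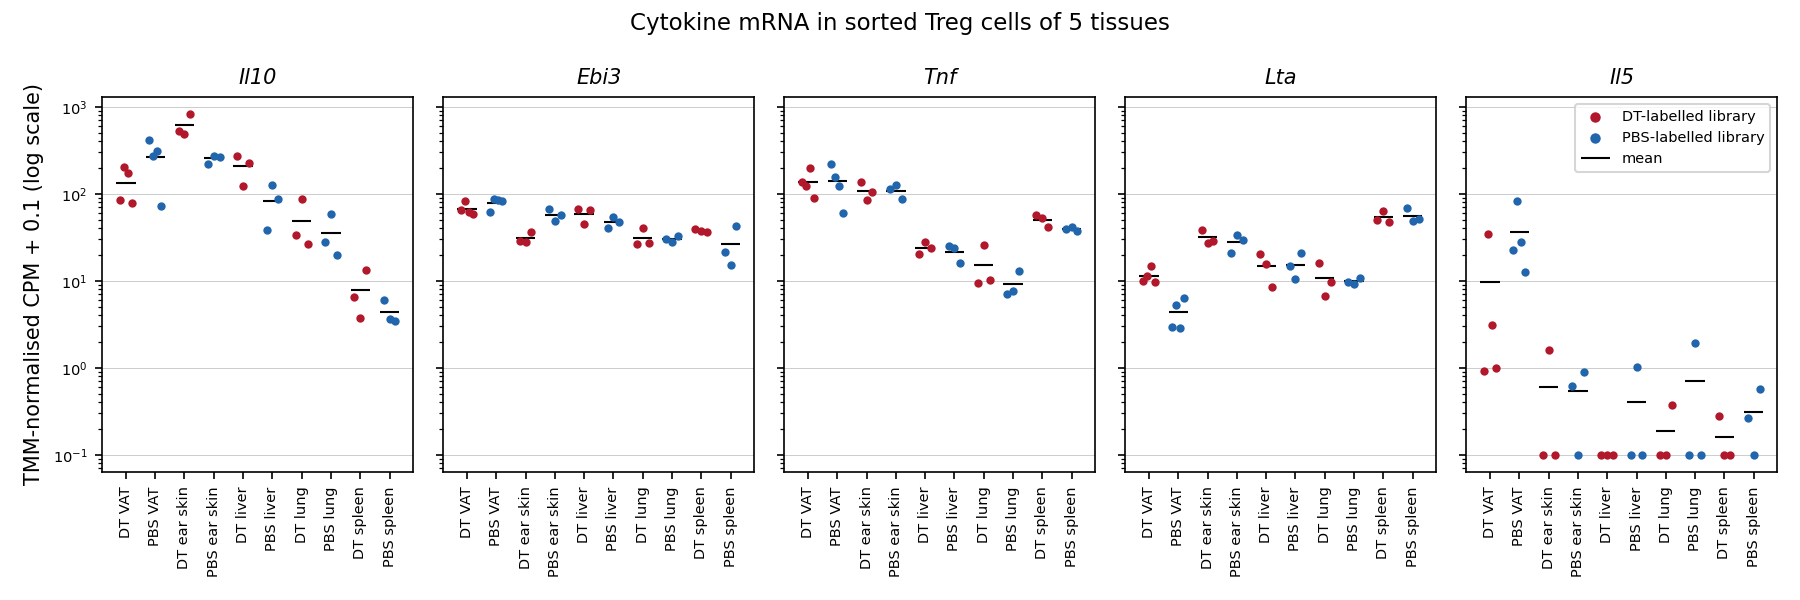
TMM-normalised CPM plus 0.1 (log scale) of Il10, Ebi3, Tnf, Lta and Il5 in each Treg library of 5 tissues, DT-labelled left of PBS-labelled, with points for libraries and lines for group means. Il10 spans the range from 3.31 CPM in spleen to 835 CPM in ear skin, Lta is highest in spleen, and Il5 exceeds 2.02 CPM in VAT libraries alone.

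Ebi3 (chromosome 17, 55952640 to 55957022, plus strand) varied far less than Il10. It had 65.8, 82.1, 62.2 and 58.6 CPM in DT-labelled VAT, against 39.1, 36.9 and 36.5 CPM in DT-labelled spleen. It had 62.1, 85.9, 85.4 and 82.9 CPM in PBS-labelled VAT, against 21.2, 15.1 and 43.0 CPM in PBS-labelled spleen. VAT and spleen did not overlap in either arm, with log2 fold changes of 0.87 ± 0.24 and 1.61 ± 0.25 (SE; edgeR adjusted p = 0.0171 and 1.22e-05 in the DT- and PBS-labelled arm). The DT-labelled call was lost without any of the 3 spleen libraries or without VAT replicate 6 (adjusted p = 0.0653 to 0.0833).

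In ear skin the arms differed in Ebi3. DT-labelled ear skin held 28.5, 28.1 and 36.2 CPM and PBS-labelled ear skin 66.7, 48.3 and 57.5 CPM. All DT-labelled ear skin libraries were below those of the DT-labelled spleen (log2 fold change -0.16, edgeR adjusted p = 0.690), and all PBS-labelled ear skin libraries were above those of the PBS-labelled spleen (1.25 ± 0.26 SE, edgeR adjusted p = 0.000481). The difference between these arm effects was -1.41 ± 0.37 (SE; unadjusted p = 0.000567) and did not pass adjustment (edgeR adjusted p = 0.264). Without PBS-labelled spleen replicate 3, the highest of its group, it did (adjusted p = 0.0068).

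In liver Ebi3 was called in PBS-labelled libraries (0.88 ± 0.26 SE, edgeR adjusted p = 0.0164) and not in DT-labelled ones (0.67 ± 0.26 SE, adjusted p = 0.0834). The first call was lost without PBS-labelled spleen replicates 1 or 2 or liver replicate 2 (adjusted p = 0.115 to 0.144), and with the compared libraries alone (adjusted p = 0.175). The second passed with DESeq2, with limma voom, with the compared libraries alone and without PBS-labelled spleen replicate 3 (adjusted p = 0.0443, 0.0422, 0.0255 and 0.0314). In lung neither arm was called (edgeR adjusted p = 0.612 and 0.619 for DT and PBS), but PBS-labelled lung was when spleen replicate 3 was left out (adjusted p = 0.0199). The protein chains that pair with EBI3 were scarcely counted. Il12a, the second chain of interleukin-35, had at most 11 counts in a library, and Il27, that of interleukin-27, at most 10.

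Tnf moved in opposite directions among the tissues. It had 136, 124, 195 and 90.4 CPM in DT-labelled VAT and 137, 85.5 and 104 CPM in DT-labelled ear skin, against 56.5, 51.9 and 41.7 CPM in DT-labelled spleen. DT-labelled liver held 20.4, 27.6 and 23.9 CPM and DT-labelled lung 9.38, 25.9 and 10.2 CPM. No tissue overlapped with spleen. The log2 fold changes were 1.48 ± 0.33 in VAT, 1.24 ± 0.34 in ear skin, -1.04 ± 0.35 in liver and -1.68 ± 0.36 in lung (SE; edgeR adjusted p = 0.00207, 0.00806, 0.0466 and 0.00121). The liver call sat at the threshold and was lost without any 1 of the 6 compared libraries (adjusted p = 0.0588 to 0.177), and the ear skin call without ear skin replicate 4 (adjusted p = 0.0644). Macrophages also make Tnf, and their 8 markers, all detected, summed to 2.14 to 113 CPM in DT-labelled VAT and 17.8 to 28.3 CPM in DT-labelled ear skin, against 5.97 to 14.7 CPM in DT-labelled spleen, where Cd14 was at 0. VAT replicate 7 had the highest sum and the most Tnf, and the log2 fold change in VAT was 1.25 without it (edgeR adjusted p = 0.0135). The part of macrophages in the Tnf levels was not tested.

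PBS-labelled libraries gave the same directions. Tnf had 222, 157, 123 and 60.3 CPM in PBS-labelled VAT and 112, 124 and 87.1 CPM in PBS-labelled ear skin, against 39.1, 41.7 and 37.1 CPM in PBS-labelled spleen. PBS-labelled liver held 24.8, 23.6 and 16.1 CPM and PBS-labelled lung 6.96, 7.53 and 13 CPM. VAT and ear skin lay above spleen, and liver and lung below it, in every library. The log2 fold changes were 1.87 ± 0.33, 1.59 ± 0.34, -0.82 ± 0.35 and -2.04 ± 0.38 for VAT, ear skin, liver and lung (SE; edgeR adjusted p = 8.79e-05, 0.000713, 0.112 and 0.000202), so the liver difference was not called. Here the macrophage markers summed to 4.21 to 11 CPM in VAT and 12.8 to 19.5 CPM in ear skin, against 9.54 to 13 CPM in spleen.

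Lta, by contrast, was at its highest in spleen and thymus. It had 9.94, 11.1, 14.9 and 9.48 CPM in DT-labelled VAT, against 50.3, 63.1 and 46.7 CPM in DT-labelled spleen. It had 2.81, 5.19, 2.75 and 6.20 CPM in PBS-labelled VAT, against 68.7, 48.2 and 50.6 CPM in PBS-labelled spleen. The fall in VAT was -2.20 ± 0.30 and -3.68 ± 0.32 on the log2 scale (SE; edgeR adjusted p = 2.69e-06 and 2.12e-10 for DT and PBS), with no overlap.

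Lta was also lower in lung (-2.30 and -2.46 in the DT- and PBS-labelled arm, edgeR adjusted p = 5.33e-06 and 1.98e-06) and in liver (-1.80 and -1.83, adjusted p = 0.000146 and 0.000112). The means were 10.7 and 9.72 CPM in lung and 14.8 and 15.2 CPM in liver. In ear skin the difference was smaller. DT-labelled ear skin held 38.0, 27.3 and 28.8 CPM (-0.64, edgeR adjusted p = 0.137), and PBS-labelled ear skin 20.9, 33.1 and 29.7 CPM (-0.86 ± 0.31 SE, adjusted p = 0.0435). This last call was lost with relative log expression size factors (adjusted p = 0.0758), with DESeq2 (0.0547), with the compared libraries alone (0.0750) and without any of 5 single libraries, which are all but 1 of the 6 compared (0.0527 to 0.169).

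**Figure D2:**
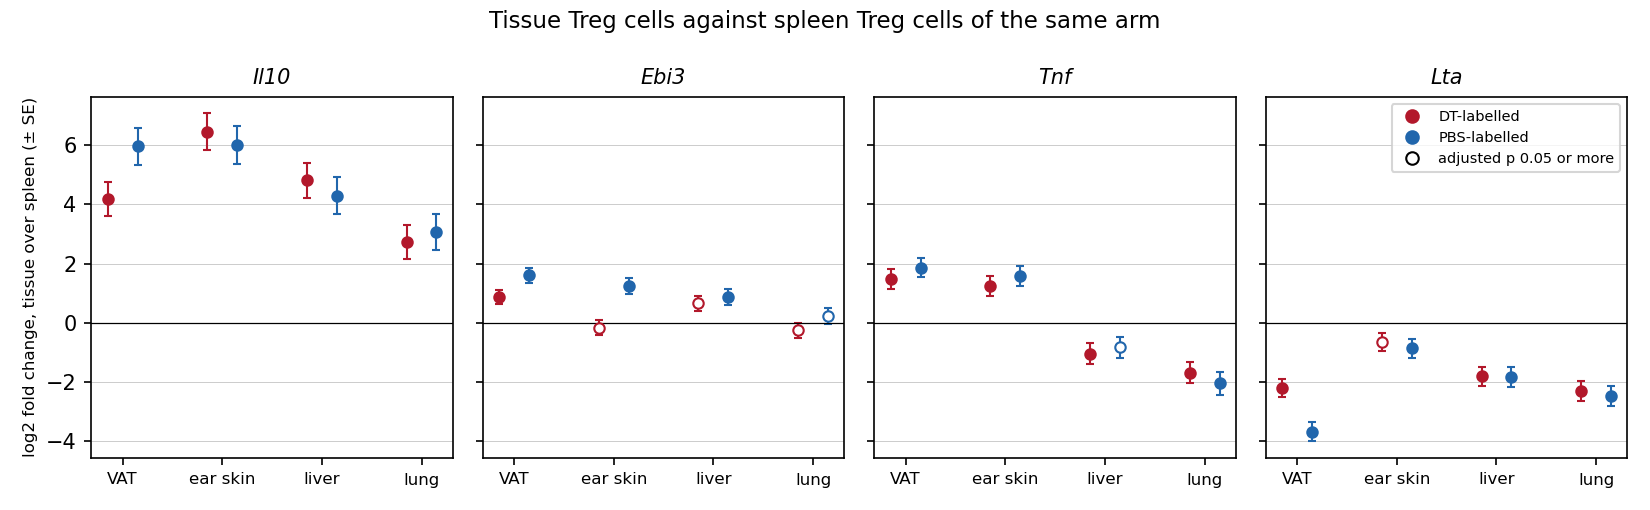
Log2 fold change with its SE of Il10, Ebi3, Tnf and Lta in Treg cells of VAT, ear skin, liver and lung over spleen Treg cells of the same arm, with open points where the edgeR adjusted p is 0.05 or more. Il10 lies above 0 throughout, Lta below 0 throughout, and Tnf above 0 in VAT and ear skin and below 0 in liver and lung.

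The opposite courses of the neighbours show in the ratio of Tnf to Lta counts within a library, which does not depend on library size. Its median was 12.1 in DT-labelled VAT and 37.5 in PBS-labelled VAT, and 3.59 and 3.76 in DT- and PBS-labelled ear skin. In spleen it was 0.894 and 0.734 in the DT- and PBS-labelled arm, in lung 1.06 and 0.833, and in liver 1.77 and 1.68. In the thymus the group medians ran from 0.252 in D49 P2 to 0.705 in D5 P1. Every VAT library was at or above 9.53, every ear skin library lay between 2.94 and 5.36, and every spleen library was at or below 1.12.

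**Figure D3:**
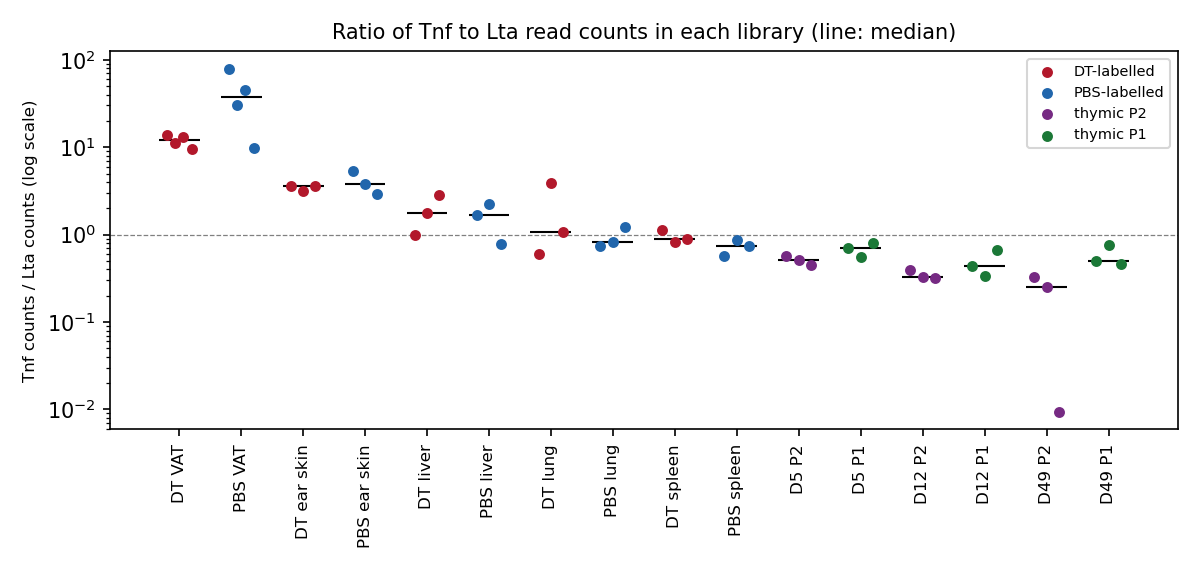
Tnf counts over Lta counts (log scale) in each library, with the group median as a line and a dashed line at equal counts. VAT stands highest (9.53 to 79.1), ear skin next (2.94 to 5.36), and thymic progenitors lie below 1.

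Ltb, the partner chain of membrane lymphotoxin and the next gene of this locus, fell with Lta. It averaged 562 ± 43.0 CPM in DT-labelled VAT and 1332 ± 13.2 CPM in DT-labelled spleen (SD, n = 4 and 3; log2 fold change -1.21, edgeR adjusted p = 1.87e-05). It averaged 476 ± 71.7 CPM in PBS-labelled VAT and 1992 ± 1089 CPM in PBS-labelled spleen (-2.01, adjusted p = 8.87e-10), where the spleen libraries were widely spread. Ltb was called lower than spleen in all 8 tissue comparisons.

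Set beside each other with the arms averaged, VAT and ear skin differed in 6 of the 7 tested members, with 32.8% of all genes called. Il4, Il5 and Il17a are among the 6 and passed the filter only through groups in which they were high. The count and their p-values therefore describe these members and no more. Lta was lower in VAT by -2.19 ± 0.22 on the log2 scale (SE; edgeR adjusted p = 4.33e-09) with no overlap. Il10 was also lower in VAT (-1.16 ± 0.31, adjusted p = 0.00558). In the DT-labelled arm the Il10 groups did not overlap, and in the PBS-labelled arm VAT libraries lay both above and below those of ear skin. Ebi3 was higher in VAT (0.69 ± 0.17, adjusted p = 0.00263), and Tnf was not called (0.26 ± 0.22, adjusted p = 0.376). The calls of Il4 (-2.16, adjusted p = 0.0261) and Il17a (-3.95, adjusted p = 0.0345) were not stable. That of Il4 was lost without DT-labelled ear skin replicate 6 or PBS-labelled ear skin replicate 3 (adjusted p = 0.130 and 0.511). That of Il17a was lost without DT-labelled ear skin replicate 4 or PBS-labelled ear skin replicate 2 (1 and 0.139) and, at 0.0504 to 0.0531, without PBS-labelled ear skin replicate 3, PBS-labelled VAT replicates 2 or 3 or DT-labelled VAT replicates 5 or 8.

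Il5, the growth factor of eosinophils, marked VAT. It had 0.81, 34.1, 3.03 and 0.88 CPM in DT-labelled VAT (4, 156, 11 and 4 counts), against 0.18, 0 and 0 CPM in DT-labelled spleen. It had 22.5, 83.3, 27.7 and 12.6 CPM in PBS-labelled VAT (120, 385, 131 and 61 counts), against 0.16, 0 and 0.47 CPM in PBS-labelled spleen. Outside VAT no library exceeded 2.02 CPM, so all PBS-labelled VAT libraries lay above every library of another tissue, and in the DT-labelled arm 1 library carried most of the counts.

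The difference from spleen was called in both arms (log2 fold change 6.66 ± 1.58 and 7.36 ± 1.41 SE, edgeR adjusted p = 0.00481 and 0.000295 for DT and PBS). Il5 passed the filter only through VAT, so its p-values describe Il5 and no more. The spleen groups held 1 and 3 counts in all, so the sizes are loose. The ratio of pooled CPM was 142 (95% counting interval 25.2 to 5650) for DT and 185 (62.9 to 897) for PBS, and such intervals and the floors given here cover counting error only. Without DT-labelled VAT replicate 6, the library with 156 counts, the DT-labelled log2 fold change was 3.99 and the call was lost (adjusted p = 0.108), as it was with limma voom (0.0791). Replicate 6 also had the highest CD8 T cell marker sum of its group (87.9 CPM), and the part of such cells was not tested. VAT also exceeded ear skin (5.03 ± 0.91 SE, edgeR adjusted p = 0.000106). Within VAT, DT-labelled libraries were not called different from PBS-labelled ones (-1.86 ± 0.94 SE, adjusted p = 0.671), and the groups overlapped through replicate 6.

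Group 2 innate lymphoid cells, another source of Il5 in fat, are CD4-negative and outside the gate. Their 6 markers summed to 74.9 to 108 CPM in DT-labelled VAT and 69.2 to 142 CPM in PBS-labelled VAT, against 20.6 to 26.7 and 16.8 to 29.1 CPM in DT- and PBS-labelled spleen. In DT-labelled VAT 5 of 6 were detected (Ptgdr2 at 0), and the sum was carried by Il9r (68.8 CPM on average), in both arms. The sum was higher still in ear skin (140 to 166 and 161 to 176 CPM in the DT- and PBS-labelled arm), where Il5 stayed at or below 1.52 CPM. The part of these markers in the Il5 result was not tested. Gm12214, whose exons overlap Il5 on the other strand, had 0 counts in all 50 libraries.

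Il4 stood out in DT-labelled ear skin. It had 12.4, 8.60 and 53.3 CPM there (34, 34 and 159 counts), against 0.26, 0 and 1.59 CPM (1, 0 and 6 counts) in PBS-labelled ear skin. The groups did not overlap, and replicate 6 was far above the other DT-labelled libraries. In the fit of ear skin alone the log2 fold change was 5.23 ± 0.80 (SE, edgeR adjusted p = 0.00461), and the ratio of pooled CPM was 37.5 (95% counting interval 17.9 to 94.3). Il4 passed the filter of that fit only through the DT-labelled libraries, so the p-value describes Il4 and no more. Against DT-labelled spleen (0.54, 0.40 and 3.39 CPM) Il4 was higher by 4.21 ± 1.03 (SE, edgeR adjusted p = 0.00331), a call lost without ear skin replicate 6 (adjusted p = 0.0770). Mast cells and basophils also make Il4, and their 7 markers summed to 6.03 to 6.35 CPM in DT-labelled and 1.94 to 10.3 CPM in PBS-labelled ear skin. All 7 were detected in DT-labelled ear skin and 6 in PBS-labelled ear skin, where the basophil protease gene Mcpt8 was at 0. The part of such cells was not tested. In PBS-labelled lung Il4 had 0 counts in all 3 libraries, which allows at most 3 counts in each. Against PBS-labelled spleen (1.29, 1.17 and 0.473 CPM) it was not called (edgeR adjusted p = 0.0532), but it was called lower with no filter and with DESeq2 (0.0183 and 0.0225), and the adjusted p was 0.0403 to 0.0498 in those fits without 1 library that called it.

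The comparison of the arms within a tissue called few members. In ear skin 2 of the 5 tested were called, Il4 and Il10, both higher in DT-labelled cells, while edgeR called 0.411% of all genes there. Il4 passed the filter only through the DT-labelled libraries, in which it was high, so nothing is read from this count. Il10 had 523, 484 and 835 CPM in DT-labelled ear skin, against 222, 275 and 267 CPM in PBS-labelled ear skin, with no overlap (log2 fold change 1.28 ± 0.18 SE, edgeR adjusted p = 0.00184). Neither call held under every fit. Il10 was not called when all 32 peripheral libraries shared an estimate of the spread (adjusted p = 0.551), nor Il4 with limma voom and quality weights (adjusted p = 0.258).

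None of the 4 members tested in spleen, lung and liver was called between the arms, and edgeR called 0% of all genes in those 3 tissues. Over all 5 tissues, 5 of 22 member tests had an unadjusted p under 0.05 with edgeR. Of all genes tested, 358 of 12453 in spleen, 412 of 12046 in lung and 525 of 11962 in liver had such a p. In ear skin 1164 of 12653 had it, and in VAT 955 of 12067. Il4 in ear skin and Il5 in VAT passed the filter only through the arm in which they were high, so nothing is read from this count. DESeq2 called 4 of the member tests, and its share over all genes is not given here. In liver Il10 had 273, 123 and 228 CPM in DT-labelled and 37.9, 124 and 87.8 CPM in PBS-labelled cells (1.3 ± 0.38 SE, edgeR adjusted p = 0.927), with an overlap of 1 library on each side. In VAT 0 of 5 members were called, with 0.124% of all genes. Lta was 9.94, 11.1, 14.9 and 9.48 CPM in DT-labelled VAT and 2.81, 5.19, 2.75 and 6.20 CPM in PBS-labelled VAT. The groups did not overlap (1.46 ± 0.38 SE), but the edgeR adjusted p was 0.296, while DESeq2 gave 0.0336. Ebi3 in ear skin was lower in each DT-labelled library (-0.87 ± 0.21 SE, edgeR adjusted p = 0.0828, DESeq2 adjusted p = 0.0220).

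The arm effects themselves were compared between each tissue and spleen. edgeR called 0 of 28 member tests, 5 had an unadjusted p under 0.05, and DESeq2 and limma voom also called 0. Of 17731 genes, 801, 940, 1127 and 1160 had an unadjusted edgeR p under 0.05 for lung, liver, ear skin and VAT. Il4, Il5 and Il17a entered these tests only through the groups in which they were high, so the count of 5 describes the members and no more. After adjustment edgeR called 0% of all genes for lung and liver, 0.0451% for ear skin and 0.0169% for VAT. Besides Ebi3 in ear skin, the unadjusted p was under 0.05 for Il4 in ear skin (difference 4.75 ± 1.51 SE, edgeR adjusted p = 0.525), Lta in VAT (1.48 ± 0.44, adjusted p = 0.580), Il10 in VAT (-1.77 ± 0.78, adjusted p = 0.751) and Ebi3 in VAT (-0.73 ± 0.34, adjusted p = 0.757).

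Il17a, Il13 and Csf2 were close to the detection limit. Il17a (chromosome 1, 20730905 to 20734496, plus strand) had counts in 14 of 50 libraries. It was at 0 in all thymus and spleen libraries and in DT-labelled VAT. The highest counts were single libraries of their groups, namely 30 in DT-labelled ear skin replicate 4, 19 in PBS-labelled liver replicate 1 and 14 in DT-labelled liver replicate 5. The other 2 DT-labelled ear skin libraries held 0, so the call over DT-labelled spleen (edgeR adjusted p = 0.0271) rests on 1 library and ended without it (adjusted p = 1), as it did without any 1 of the 3 spleen libraries (0.0720 to 0.0901). With a floor of 3 counts over the DT-labelled spleen group, pooled ear skin was at least 14.8-fold higher.

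Il13 (chromosome 11, 53631324 to 53634702, minus strand), 12654 bases from Il4, never passed the filter. Its highest count was 17, in DT-labelled ear skin replicate 6 (5.70 CPM), the library with the most Il4. Csf2 (chromosome 11, 54247271 to 54249667, minus strand) did not pass either. It reached 8 counts, with 7, 4, 1 and 2 in DT-labelled VAT and 8, 7, 1 and 0 in PBS-labelled VAT, and at most 5 in any library of another tissue. Gm12223, whose exons overlap Csf2 on the other strand, reached 6 counts, and without a stated strand setting reads of the pair cannot be told apart. The same holds for Ebi3 and Gm16712, which reached 57 counts.

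**Figure D4:**
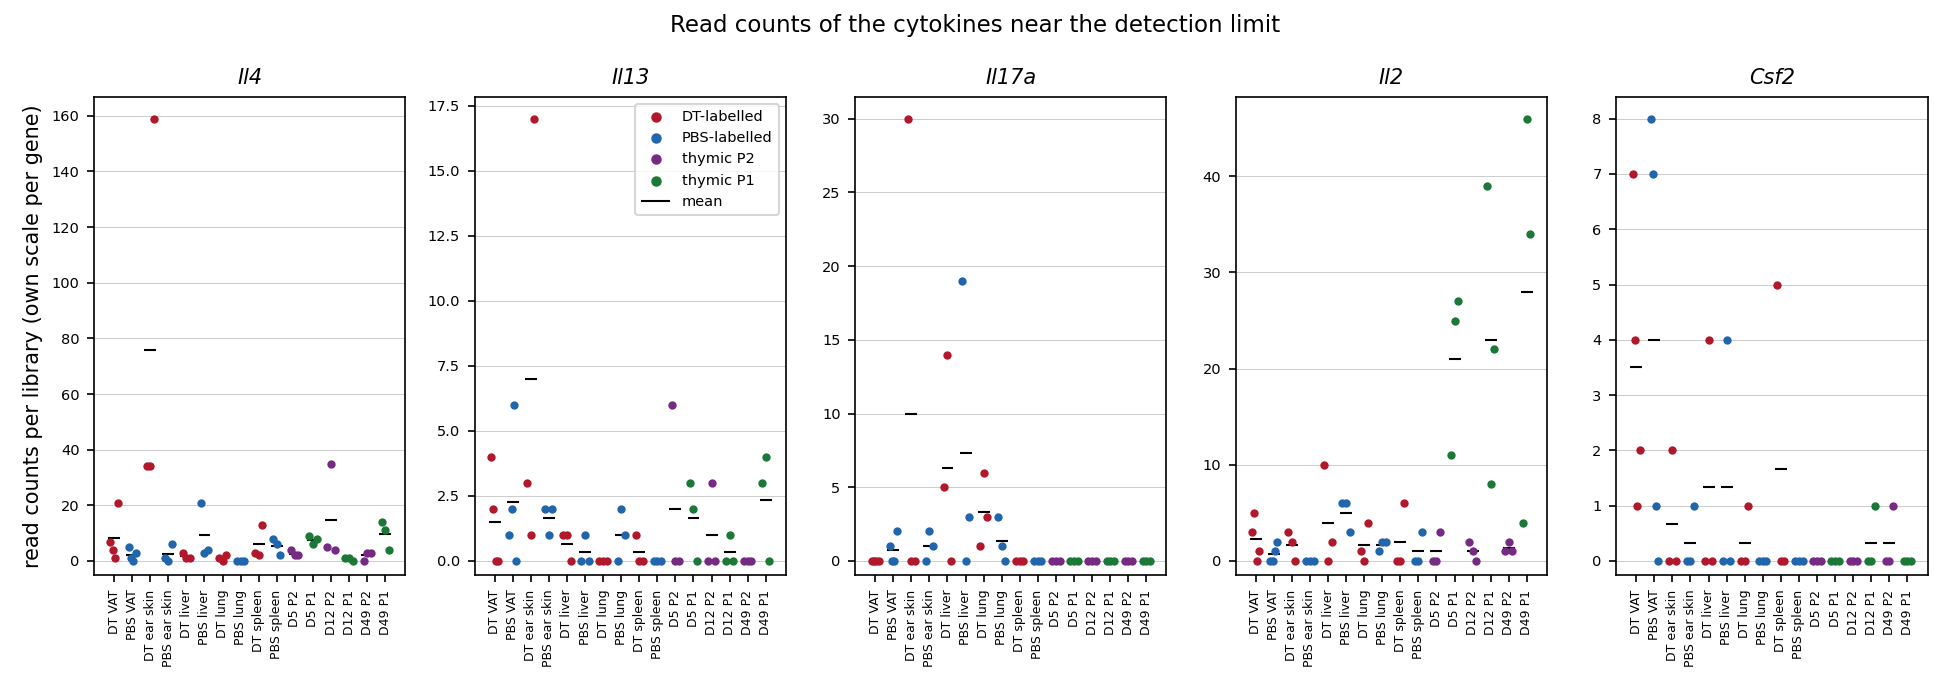
Read counts per library of Il4, Il13, Il17a, Il2 and Csf2 in all 16 groups, each gene on its own scale, with points for libraries and lines for group means. Il4 and Il13 peak in the same DT-labelled ear skin library (159 and 17 counts), Il17a peaks in another (30), and Il2 is counted mainly in thymic P1 cells (4 to 46).

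In thymic progenitors Lta and Tnf were the leading members and Il2 separated the populations. Of the 10 members, 5 passed the filter in the thymus (Ebi3, Il4, Il2, Tnf and Lta). Il2 (chromosome 3, 37120523 to 37125959, minus strand) had 0, 0 and 0.59 CPM in D5 P2 and 2.15, 4.6 and 4.39 CPM in D5 P1. It had 0.45, 0.21 and 0 CPM in D12 P2 and 6.68, 1.79 and 4.64 CPM in D12 P1. It had 0.29, 0.59 and 0.20 CPM in D49 P2 and 0.92, 10.5 and 5.90 CPM in D49 P1. Every P1 library lay above every P2 library.

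The log2 fold changes of Il2 in P2 over P1 were -3.97 ± 1.07, -4.29 ± 1.07 and -3.79 ± 1.04 at D5, D12 and D49 (SE; edgeR adjusted p = 0.0140, 0.00370 and 0.0109). Il2 passed the filter only through P1, so these p-values describe Il2 and no more. With the compared libraries alone it did not pass the filter at every age. The P2 groups held 3, 3 and 4 counts in all, and the ratios of pooled CPM were 0.0558 (95% counting interval 0.0112 to 0.171), 0.0469 (0.00945 to 0.143) and 0.0584 (0.0156 to 0.155). The D5 call was lost without D5 P2 replicates 1 or 2 (adjusted p = 0.0729 and 0.0685). The D49 call was lost without D49 P1 replicate 2 (0.0615), with D49 P2 replicates 2 and 3 both left out (log2 fold change -4.19, adjusted p = 0.0843) and with limma voom (0.184). With both left out, D49 P2 is a single library that is assumed to vary like the other groups, here and in the same alternative for Tnf and Ebi3. In peripheral Treg cells Il2 had at most 10 counts in a library and did not pass the filter.

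The other members differed less evenly between P2 and P1. With 15.2%, 41.4% and 29.5% of all genes called at D5, D12 and D49, edgeR called 1, 2 and 3 of the 5 members. Il2 is among them at each age and passed the filter only through P1, in which it was high. Il4 is among them at D12 and passed only through D12 P2 and D49 P1, so these counts describe the members and no more. At D49 Tnf had 18.3, 11.6 and 0.40 CPM in P2 and 38.5, 34.4 and 34.0 CPM in P1 (-1.74 ± 0.49 SE, edgeR adjusted p = 0.0127). Ebi3 had 1.43, 1.78 and 0.40 CPM in P2 and 8.48, 2.50 and 8.68 CPM in P1 (-2.31 ± 0.64 SE, adjusted p = 0.0119). The groups did not overlap in either gene, and replicate 3 was the lowest P2 library in both. Without D49 P2 replicates 2 and 3, whose macrophage markers stand apart, neither was called: the log2 fold change was -0.94 for Tnf (adjusted p = 0.0635) and -2.16 for Ebi3 (0.129). Neither was called with the compared libraries alone either (0.161 and 0.0982). The part of those markers was not tested. At D5 Tnf was lower in every P2 library (20.8, 24.4 and 19.8 CPM, against 35.0, 31.1 and 38.5 CPM in P1), with an edgeR adjusted p of 0.403. The same difference passed with the D5 libraries alone (0.0125).

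At D12 Il4 was called higher in P2, with 1.12, 7.48 and 0.84 CPM (5, 35 and 4 counts), than in P1, with 0.17, 0.22 and 0 CPM (1, 1 and 0 counts). The log2 fold change was 4.21 ± 1.23 (SE, edgeR adjusted p = 0.0105), and the ratio of pooled CPM was 23.7 (95% counting interval 6.19 to 202). Il4 passed the filter of the thymus fit only through D12 P2 and D49 P1, so the p-value describes Il4 and no more. The call was lost without D12 P2 replicate 2 (adjusted p = 0.151). That library also had the highest sum of gamma delta and innate-like T cell markers of its group, 41 CPM over 5 detected markers, against 5.11 CPM in the lowest. In D5 P2, where Il4 stayed at or below 0.826 CPM, that sum was 53.6 to 75.9 CPM. The part of these markers was not tested.

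Between ages edgeR called 18.3%, 10.6% and 23.7% of all genes in P1 for D12 over D5, D49 over D5 and D49 over D12, and 5.16%, 25.8% and 15% in P2. Of 30 member tests it called 2. Il4 is among these calls and passed the filter only through groups in which it was high, so the count describes the members and no more. Ebi3 in P2 had 9.50, 5.75 and 7.52 CPM at D5, 3.58, 1.28 and 5.43 CPM at D12 and 1.43, 1.78 and 0.40 CPM at D49. D49 P2 was lower than D5 P2 (-2.57 ± 0.64 SE, edgeR adjusted p = 0.00739), with no overlap. This call ended with limma voom (adjusted p = 0.0746) and when D49 P2 replicates 2 and 3 were both left out (log2 fold change -2.41, adjusted p = 0.0977). Tnf in P2 had 20.8, 24.4 and 19.8 CPM at D5, 21.9, 16.9 and 14.0 CPM at D12 and 18.3, 11.6 and 0.403 CPM at D49. D49 lay below D5 in every P2 library, but Tnf was not called (-1.07, edgeR adjusted p = 0.120). It was with no filter (0.000663) and without D49 P2 replicate 1 (-1.80, 0.0121).

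Il4 in P1 had 1.76, 1.1 and 1.3 CPM at D5, 0.17, 0.22 and 0 CPM at D12 and 3.21, 2.50 and 0.70 CPM at D49. D49 P1 was called higher than D12 P1 (3.64 ± 1.23 SE, edgeR adjusted p = 0.0379; pooled ratio 15, 95% counting interval 3.8 to 130). As Il4 passed the filter only through D12 P2 and D49 P1, this p-value too describes Il4 and no more. The call was lost without any of 8 single libraries, among them each D5 and D12 P1 library (adjusted p = 0.0505 to 0.117). Lta did not pass at any step. It had 37.0, 48.1 and 44.1 CPM in D5 P2, 55.0, 51.5 and 44.1 CPM in D12 P2 and 56.1, 45.9 and 43.3 CPM in D49 P2. In P1 it had 49.6, 55.7 and 47.7 CPM at D5, 61.3, 45.0 and 39.0 CPM at D12 and 76.8, 44.9 and 73.5 CPM at D49. All these groups overlap with their neighbours in age.

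**Figure D5:**
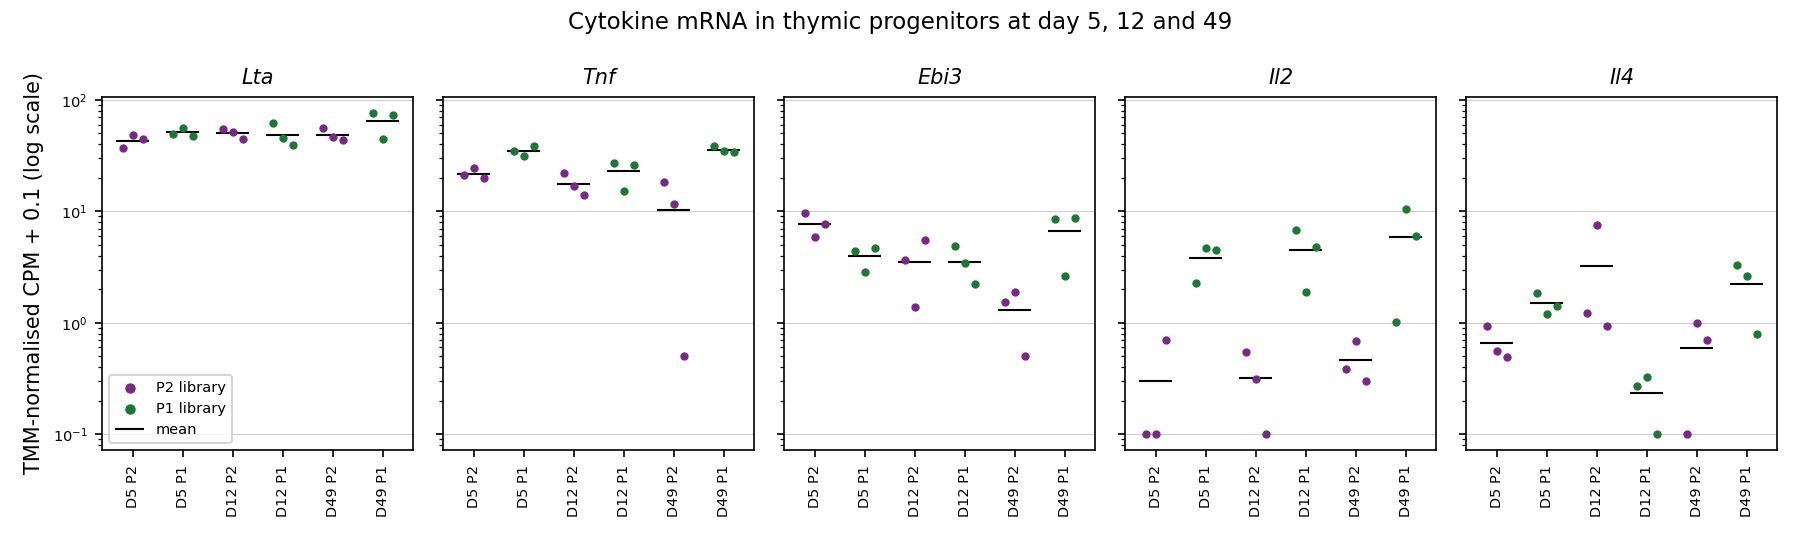
TMM-normalised CPM plus 0.1 (log scale) of Lta, Tnf, Ebi3, Il2 and Il4 in thymic progenitors, P2 left of P1 at day 5, 12 and 49, with points for libraries and lines for group means. Lta lies between 37.0 and 76.8 CPM in all 18 libraries, while Il2 reaches at most 0.59 CPM in P2 and at least 0.92 CPM in P1.

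To compare genes with each other, levels were set per kilobase of exon. On that scale Lta was the highest member in all 6 thymus groups (31.1 to 47.0 CPM per kilobase) and in DT- and PBS-labelled spleen (38.6 and 40.4), ahead of Tnf and Ebi3. Il10 was the highest in every other peripheral group. It led by little in lung, with 37.2 and 27.0 CPM per kilobase in the DT- and PBS-labelled arm, against 26.8 and 26.1 for Ebi3, and by most in DT-labelled ear skin, with 469 against 66.4 for Tnf. In PBS-labelled VAT Il5, at 23.8 CPM per kilobase, came after Il10 (203), Tnf (85.8) and Ebi3 (68.5).

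Genes whose group means ran most like those of a member were taken from 9847 genes by the Pearson correlation of log2 means over the 16 groups. For Il10 these were Car5b (0.984), Slc15a3 (0.982) and Acot11 (0.978), and for Ebi3 Naip2 (0.972), Neu3 (0.970) and St6galnac6 (0.969). The nearest to Il5 were Fam183b (0.936), Cxcl3 (0.918) and Ell (0.918), and to Tnf Tmem181a (0.926), Rcsd1 (0.913) and Btbd19 (0.903). For Lta they were Usp11 (0.887), Foxp4 (0.882) and Arhgap39 (0.874). Il4 had no close match (at most 0.731). Between members the correlation was 0.876 for Il10 and Ebi3, -0.738 for Il10 and Lta, and -0.20 for Tnf and Lta. All these points share the contrast of thymus and periphery, so they are given as a description.

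Many of the listed transcription factors known to act on cytokine genes in T cells were higher in tissue than in spleen. The list was chosen with earlier results of these data known, so the counts describe these genes and no more. Of 15, edgeR called 7, 10, 11 and 6 higher in DT-labelled lung, liver, ear skin and VAT, and 9, 11, 11 and 8 in the PBS-labelled ones, with at most 2 lower. Of all genes tested, the percent called higher was 8.48, 8.18, 10.5 and 5.7 in the DT-labelled and 8.14, 9.15, 11.1 and 8.67 in the PBS-labelled arm. Rora, a nuclear receptor of the ROR family, averaged 448 ± 79.1 CPM in DT-labelled VAT and 80.2 ± 19.5 CPM in DT-labelled spleen (SD, n = 4 and 3; 2.52, edgeR adjusted p = 1.83e-09). Gata3, the factor of type 2 immunity, averaged 1618 ± 88.8 CPM in DT-labelled VAT and 424 ± 79.1 CPM in DT-labelled spleen (1.97, adjusted p = 1.99e-07). Prdm1 (Blimp-1), which is known to promote Il10, averaged 125 ± 9.08 CPM in DT-labelled ear skin and 37.2 ± 6.94 CPM in DT-labelled spleen (SD, n = 3 each; 1.87, adjusted p = 1.69e-07). Bhlhe40, known as a repressor of Il10, was also higher in that ear skin, with 405 ± 142 CPM, than in that spleen, with 42.5 ± 23.8 CPM (3.37, adjusted p = 1.05e-08).

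VAT and ear skin differed in these factors too, with 4 of 15 called higher and 8 lower in VAT, beside 16.3% and 16.5% of all genes. Bhlhe40 averaged 118 ± 37.0 CPM in VAT and 390 ± 97.6 CPM in ear skin over both arms (SD; -1.83, edgeR adjusted p = 6.66e-08). Ahr, the sensor of environmental ligands, averaged 6.66 ± 3.02 CPM in VAT and 36.0 ± 11 CPM in ear skin (-2.51, adjusted p = 1.26e-09). None of the 15 was called between the arms in any tissue.

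Of 18 tested receptors of the members, edgeR called 2, 2, 3 and 2 higher and 1, 2, 4 and 2 lower in DT-labelled lung, liver, ear skin and VAT against spleen. In the PBS-labelled arm it called 3, 3, 1 and 4 higher and 3, 1, 5 and 2 lower. Of all genes, it called lower 6.15%, 5.08%, 11.6% and 3.15% in the DT-labelled and 7.79%, 7.85%, 12.5% and 6.27% in the PBS-labelled tissues, and the shares called higher are those given for the factors, so several of these counts are near the background. Il10ra, the ligand-binding chain of the interleukin-10 receptor, averaged 637 ± 119 CPM in DT-labelled VAT and 208 ± 5.92 CPM in DT-labelled spleen (1.65, adjusted p = 2.14e-06). Il6st, the signalling chain shared by several cytokines, was lower in that VAT, with 65.0 ± 14.5 CPM, than in that spleen, with 217 ± 69.6 CPM (-1.71, adjusted p = 7.52e-07). Il4ra, the interleukin-4 receptor, averaged 1389 ± 234 CPM in DT-labelled lung and 410 ± 29.1 CPM in DT-labelled spleen (1.78, adjusted p = 5.98e-07). Tnfrsf1b, the second TNF receptor, averaged 1608 ± 158 CPM in DT-labelled liver and 645 ± 168 CPM in DT-labelled spleen (1.35, adjusted p = 0.00031). These p-values are edgeR's, with SD and n = 3 or, for VAT, 4.

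Of 16 other T cell cytokines, 8 were tested in the periphery. In DT-labelled lung, liver, ear skin and VAT edgeR called 1, 2, 2 and 1 higher and 2 lower in each. In the PBS-labelled tissues it called 0, 0, 1 and 1 higher and 2, 2, 4 and 3 lower. Of all genes, 3.15% to 12.5% were called in 1 direction, so single calls are not read further. Besides Ltb, Il16, a chemoattractant of CD4 cells, was lower in every comparison, for example with 346 ± 56.8 CPM in DT-labelled VAT and 583 ± 28.3 CPM in DT-labelled spleen (-0.72, edgeR adjusted p = 0.000881). Ifng, the Th1 cytokine, averaged 23.5 ± 5.43 CPM in DT-labelled liver and 1.64 ± 0.94 CPM in DT-labelled spleen (3.88, adjusted p = 0.00102).

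Among 14 genes that neighbour the members in the genome, 7 were tested in the periphery. Of these, edgeR called 1, 1, 2 and 1 higher and 1, 1, 2 and 1 lower in DT-labelled lung, liver, ear skin and VAT. In the PBS-labelled tissues it called 1, 1, 1 and 0 higher and 2 lower in each. Beside 3.15% to 12.5% of all genes called in 1 direction, single calls are not read further here either. Mapkapk2, next to Il10, was higher in lung, liver and ear skin of both arms, with 63.4 ± 3.27 CPM in DT-labelled liver and 31.6 ± 6.27 CPM in DT-labelled spleen (1.03, edgeR adjusted p = 0.000771). Of Rad50, which lies between Il13 and Il5, the mean was 29.9 ± 2.82 CPM in PBS-labelled liver and 73.6 ± 40.1 CPM in PBS-labelled spleen (-1.24, adjusted p = 0.000194), with a wide spread in spleen. Kif3a, beside Il4, averaged 28.9 ± 6.92 CPM in DT-labelled ear skin and 9.09 ± 2.68 CPM in DT-labelled spleen (1.79, adjusted p = 0.00139).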

How the data were processed

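Polyadenylated RNA of 500 to 1000 sorted cells a library was sequenced. The deposited table holds raw read counts per gene, which the authors made with STAR 2.7.3a and featureCounts on mm10, per the submitters' processing notes; the sources used here give neither the annotation release nor the strand setting. Gene positions are from GENCODE M21 (mm10), promoter windows from RefSeq (GRCm38.p6).

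From the counts, levels were computed as TMM-normalised CPM over all 50 libraries. Tests used edgeR 4.0.16 in R 4.3.3 (quasi-likelihood F test, filterByExpr with a minimum count of 10 and a minimum total of 15, Benjamini-Hochberg over all genes, threshold 0.05), in 1 fit of the 32 peripheral libraries, 1 of the 18 thymus libraries and, between the arms, 1 per tissue. Each SE was derived as the absolute log2 fold change divided by the root of the F statistic. The code was tested on simulated data. Replicate pairs differed beyond counting noise (chi-square per degree of freedom at least 3.61), so no library was counted as a repeat. Depth was 2521078 to 6981037 counts, where 3 counts, taken as the floor, are 0.485 to 1.10 CPM.

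The members and the gene lists were chosen with earlier results of these data known. All members are named. Of each other list, up to 4 called genes per comparison were eligible, by the smallest adjusted p among those whose highest mean over the 16 groups is at least 10 CPM and whose compared groups do not overlap, and examples were taken from these. Alternatives were relative log expression size factors, no filter, DESeq2 1.42.0, limma 3.58.1 voom with quality weights, other sets of libraries, plain CPM, a replicate block and leaving out each library.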

Additional observations from a re-analysis of the deposited data

Results flagged for a closer look

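With 4 libraries in a group, the gap from the most extreme library to its neighbour was set against the whole range. Of 19 sets of a member and such a group, a share above Dixon's critical value was met in 2 cases. For Il5 in DT-labelled VAT the share was 0.933, from replicate 6 with 34.1 CPM, while the next library had 3.03 CPM. For Ebi3 in PBS-labelled VAT it was 0.874, from replicate 1 with 62.1 CPM below the other 3 at 82.9 to 85.9 CPM. The limit is set for about 1 in 20 groups of normally distributed values. The CPM were not log-transformed here and the 19 sets share the same VAT libraries, so nothing is read from 2 cases in 19.

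In 5 further cases every library of 1 group moved up and every library of another moved down under the same contrast, and these differences were not tested in this form. They are differences of log2 ratios of means, with 2 added to the CPM. For Il4, DT-labelled libraries were above PBS-labelled ones in ear skin and below them in liver, a difference of 4.16. The liver libraries held only 3, 1 and 1 counts against 21, 3 and 4 counts. Without the filter the liver difference had an edgeR adjusted p of 0.828. For Ebi3, ear skin lay below spleen in the DT-labelled arm and above it in the PBS-labelled arm (1.33). As the difference of arm effects given above, this was tested by edgeR and not called with all libraries. For Ebi3, P2 lay above P1 at D5 and below it at D49 (2.12). For Il4, P2 lay above P1 at D12 and below it at D5 (1.68), and D12 lay above D5 in P2 and below it in P1 (1.68). D12 P1 held 1, 1 and 0 counts of Il4 and D5 P2 held 4, 2 and 2, near the floor of 3 counts.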

How the results depend on the processing

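No result that was called in the main or in the alternative run changed direction, and sign changes of uncalled results were not counted. The members called between tissue and spleen, 15 in each arm, ranged from 12 to 16 (DT-labelled) and from 13 to 16 (PBS-labelled) when each library was left out, and the 6 called between VAT and ear skin from 4 to 6. Between the arms 2 were called, 2 whichever library was left out, 5 with no filter, 4 with DESeq2, and 1 with limma voom or in a single fit of the 32 libraries. Without the filter the added calls were Il10 in liver and VAT and Il5 in VAT. The share of all genes called under each alternative is not given here, so a higher count of members is not read as added support. The arm effect differed from that of spleen in 0 members, in 1 with no filter, and in 0 to 1 when each library was left out. With age 2 were called, 1 with limma voom or with the compared libraries alone, and 1 to 4 when each library was left out. Between P2 and P1 6 were called, 3 with the compared libraries alone, and 5 to 7 when each library was left out. Without both of D49 P2 replicates 2 and 3 these counts were 3 and 4. Of the 3 P2 against P1 calls with the compared libraries alone, Ebi3 and Tnf at D5 were new (edgeR adjusted p = 0.0412 and 0.0125). Those of Ebi3 and Tnf at D49 were lost. Most Il2 and Il4 calls were not repeated, since these genes did not pass the filter of those fits. Why counts moved was not tested beyond what each alternative itself changes.

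Replicate numbers were not taken as pairs, since in no comparison did every same-numbered pair correlate above 0.1 in its deviations from the group means. In PBS-labelled ear skin against spleen same-numbered pairs correlated at 0.0817 to 0.123, and other pairs at most at 0.0652. In DT-labelled liver against spleen the values were 0.0989 to 0.115 and at most 0.0183, so pairing is not excluded there. With the replicate number as a block, 14 (DT-labelled) and 15 (PBS-labelled) members were called against spleen, 2 with age and 6 between P2 and P1. In the fits of a single arm that carry the block, Il5 and Il17a (DT-labelled) and Il4 and Il17a (PBS-labelled) did not pass the filter, so the calls of Il5 in VAT and Il17a in ear skin were not repeated there. Under the block Lta in PBS-labelled ear skin was not called (adjusted p = 0.0665), and Ebi3 in DT-labelled liver and Tnf in PBS-labelled liver were (0.0348 and 0.0481).

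Libraries of 2521078 to 6981037 counts limit Il13, Il17a, Il2 and Csf2 most, and Il4 and Il5 outside the groups where they were high.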
